A study of Homo sapiens with 4 samples.

Results

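The genes described here are the abundantly expressed zinc finger genes of the ZNF name in 786-0 cells, an established human renal cell carcinoma line. They were chosen from the deposited expression table as the rows whose symbol is ZNF followed by a number, with or without a letter from A to D and apart from a single gene that the rule leaves out, and whose mean over the 4 libraries was at least 200. That minimum left 156 genes of 511 distinct ZNF symbols, in a table of 57659 genes. The mean level chose the genes, so their abundance is a description. The rule did not use the difference between groups, but a gene that is high in 1 group reaches the minimum more easily, and this is taken up below. RNA was sequenced as single-end poly(A)-selected libraries after transfection with control siRNA in 2 libraries, Control 1 and Control 2, or with siRNA targeting SLFN5 in 2 further libraries, SLFN5 siRNA 1 and SLFN5 siRNA 2. Schlafen 5 (SLFN5) belongs to an interferon-regulated gene family, and the labels give no time after transfection. Control 1 shares a code in its title with SLFN5 siRNA 1, and Control 2 with SLFN5 siRNA 2, and the meaning of the codes is not given. The submitters' design text speaks of triplicates, but 2 libraries per group were analysed here. Whether replicate libraries stem from separate cultures is not stated, so the p-values measure only the spread between these libraries, which may be technical.

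Most ZNF genes encode proteins with tandem C2H2 zinc fingers, each a short fold held by a pair of cysteines and a pair of histidines that reads a few bases of DNA. The largest class also carries a KRAB domain near the N terminus. That domain recruits TRIM28 (KAP1), which brings in the histone H3K9 methyltransferase SETDB1, HP1 proteins and the NuRD complex, and the bound DNA, often a retroelement, is silenced. Many KRAB genes lie in clusters on chromosome 19 that grew by duplication. Other ZNF proteins have no KRAB domain and work as transcription activators, chromatin partners, RNA-binding proteins or ribosome assembly factors.

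Values are the authors' equalised counts, that is, read counts adjusted to a common library size. The recovered depth ran from 13187517 counts in Control 2 to 31905328 in Control 1. The median count of a ZNF gene of the set was between 234 and 594 per library, and the lowest count in any library was 69. Replicates differed by more than counting noise, with a chi-square per degree of freedom of 15.9 in both groups over all genes with at least 10 counts. Over the 156 ZNF genes it was 3.57 per gene in the controls and 6.27 after SLFN5 siRNA. SLFN5 stood at 420 and 353 in the controls and at 167 and 118 after SLFN5 siRNA, or 36.8% of the control level (log2 change -1.45, SE 0.21, limma adjusted p = 0.000524). Of 13 renal markers 11 were tested, 4 of them higher and 2 lower, and CA9 and LRP2 were listed at under 1. Leukocyte markers (6 genes, 1 tested) summed to 10.6 and 17.9 in the controls and to 21.3 and 34.7 after SLFN5 siRNA. Endothelial markers (5 genes, 1 tested) summed to 9.23 and 19.2 beside 21.6 and 45.7, and fibroblast markers (5 genes, 3 tested, 1 lower) to between 110 and 183 beside 69.2 and 99.1. The groups did not overlap in these sums, which stayed low, and none of these markers was higher in the test. PTPRC, CD3E, CD79A, LYZ, PECAM1, CDH5, VWF, COL3A1 and DCN were under 1. Their part in the results below was not tested. A lower value can mean fewer cells that express a gene or less RNA per cell, and these cannot be told apart here. The small nuclear RNA RN7SK took 2.20% and 2.53% of the counts in the controls and 3.54% and 3.76% after SLFN5 siRNA, and its part was not tested either.

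More of the abundant ZNF genes rose than fell after SLFN5 siRNA. By limma on log2(value + 1), with a threshold of 0.05 on the p adjusted over all 15640 genes tested, 49 of the 156 were higher (31.4%), 18 (11.5%) were lower and the other 89 did not pass. All 156 passed the filter on low values. Over all genes tested, 13.3% were higher and 16.3% were lower, 29.6% in all. Among the 9101 tested genes with a mean of at least 200, the closer background for genes chosen by that minimum, 16.1% were higher and 24.7% were lower. The median log2 change of the ZNF set was 0.10, beside -0.03 over all tested genes and -0.09 over the genes with a mean of at least 200. Changes ran from -0.997 to 2.71. By this log2 change 19 genes were at least 2-fold higher and 0 were at least 2-fold lower. On the plain means, without the added 1, ZNF22 stood at 49.96% of its control level. Both SLFN5 siRNA libraries stood above both controls for 67 ZNF genes (30.5% of all tested genes did so) and below both for 45 (34.1% of all tested genes), and 44 overlapped. Of the 9101 tested genes with a mean of at least 200, 2716 stood above and 3949 below. Among the 121 ZNF genes with both group means at least 200, 42 stood above and 37 below.

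The minimum lets in genes that are high in 1 group. Of the higher genes, 24 had a control mean under 200 and entered the set through their level after SLFN5 siRNA, and 3 of the lower genes had a SLFN5 siRNA mean under 200. Among the 121 genes with both group means at least 200, 25 were higher, 15 were lower and the median log2 change was -0.01. With the minimum at 500 in place of 200, 12 were higher, 11 lower and the median was -0.0550. That set held 28 genes with means from 500 to 1000 and 21 of at least 1000. The excess of higher over lower calls was thus found mostly among the less abundant genes. In the band with means from 200 to 300 there were 22 higher and 4 lower of 58, and among the 21 genes with means of at least 1000 there were 3 higher and 5 lower. Just inside the minimum were ZNF707 (mean 201), ZNF331 (204) and ZNF618 (204), and just outside it ZNF778 (198.1), ZNF484 (198.0) and ZNF16 (195). The 270 other ZNF genes tested, all with means under 200, had 57 higher (21.1%) and 8 lower (2.96%) calls and a median of 0.26. Over all 15640 genes tested there were 2086 higher and 2544 lower calls. Of these, 1467 higher and 2245 lower calls fell on genes with means of at least 200. Tested genes under 200, whatever their name, thus also had more higher than lower calls. That compares the direction and not the share.

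Leaving out 1 library at a time gave 36 to 43 higher and 9 to 16 lower calls, and 9 lower calls remained without Control 1 and 9 without Control 2. Of the 49 higher genes 32 passed in all 4 such fits, of the 18 lower genes 6 did, and none of the 67 changed sign. Without the intensity trend in the variance, 19 were higher and 3 lower, while the calls over all genes fell from 4630 to 1182. Of the 10 largest rises described below ZNF611 alone then lost its call, and of the 10 largest falls ZNF22, ZNF593 and ZNF511 alone kept theirs.

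**Figure D1:**
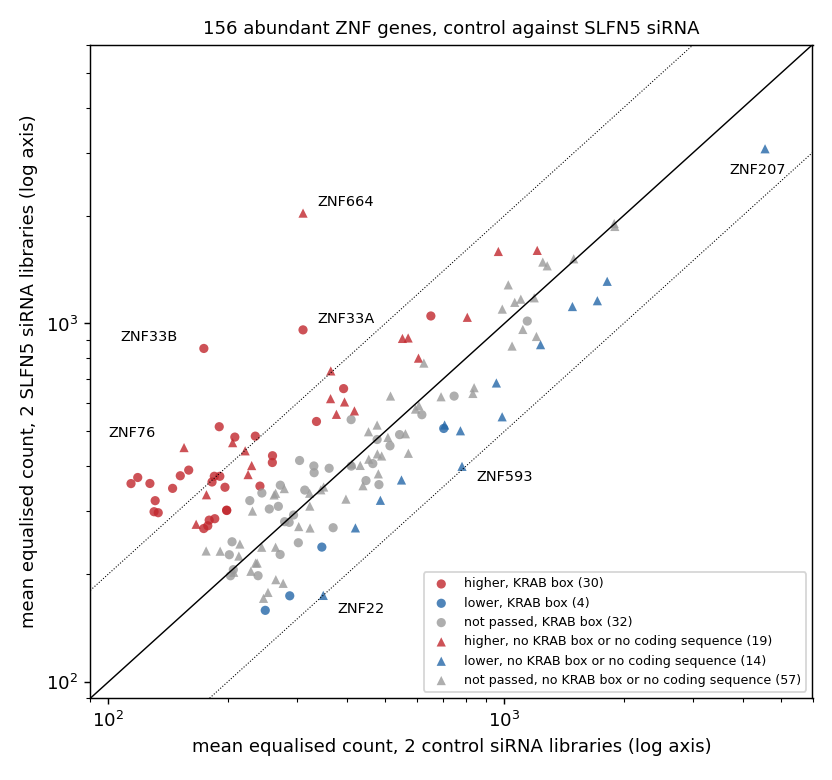
Mean equalised count of each of the 156 ZNF genes over the 2 control libraries (horizontal, log axis) and the 2 SLFN5 siRNA libraries (vertical, log axis), with the line of no change solid and 2-fold changes dotted. Colours give the limma call and shapes the KRAB box, and the points above the upper dotted line lie mostly at control means under 300, apart from ZNF664, ZNF33A and ZNF623.

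The largest rise in the set was that of ZNF664 (ENSG00000179195, chromosome 12), a gene for a C2H2 protein with no KRAB box. It stood at 312 and 308 in the controls and at 2010 and 2055 after SLFN5 siRNA. Both SLFN5 siRNA libraries were thus far above both controls, and replicates lay close together. The rise was 6.55-fold (log2 change 2.71, SE 0.13, limma adjusted p = 5.27e-07). ZNF664 overlaps CCDC92 on the other strand by 37 exon bases. CCDC92 had a mean value of 170 and a log2 change of 0.62. ZNF76 (ENSG00000065029, chromosome 6), a relative of the promoter-binding activator ZNF143, also rose without a KRAB box, from 153 and 158 to 446 and 455 (log2 change 1.53, SE 0.17, limma adjusted p = 0.000102). ZNF143 itself did not pass (log2 change -0.09, limma adjusted p = 0.734).

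KRAB genes made up 30 of the 49 higher calls, 21 of them with a control mean under 200. A KRAB box was found in 66 of the 154 members with a coding sequence, by matching at least 11 of 19 consensus positions. Of the 66, 30 were higher, 4 were lower and the median log2 change was 0.42. Of the 88 without the box, 18 were higher and 14 lower, with a median of -0.04. Among genes with both group means at least 200, KRAB genes had 9 higher and 2 lower of 41 (median 0.13), and the others 15 higher and 13 lower of 78 (median -0.04). The difference between the classes was not tested. Beside these counts stand 16.1% higher and 24.7% lower of the tested genes with a mean of at least 200. KRAB genes also had lower values, with a median of 290 beside 492, at median exon lengths of 6289 and 6407 bases. Their summed counts took 0.107% and 0.105% of the control libraries and 0.148% and 0.153% of the SLFN5 siRNA libraries, a difference that the minimum partly fixes. For the 41 KRAB genes with both group means at least 200 the shares were 0.0829% and 0.0821% in the controls and 0.102% in both SLFN5 siRNA libraries.

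Of the 201 tested KRAB genes with means under 200, 45 were higher and 5 lower (median 0.26), and of 62 without the box 12 were higher and 3 lower (median 0.30). As shares these were 22.4% higher and 2.49% lower with the box, and 19.4% and 4.84% without it. Over all genes tested the shares were 13.3% and 16.3%. Tested genes under 200 in general also had more higher than lower calls, which compares the direction and not the share.

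ZNF33B and ZNF33A, a duplicated KRAB pair on chromosome 10, had the largest rises of this class. ZNF33B (ENSG00000196693) stood at 186 and 163 in the controls and at 795 and 908 after SLFN5 siRNA, a 4.89-fold rise (log2 change 2.28, SE 0.16, limma adjusted p = 7.75e-06). ZNF33A (ENSG00000189180) went from 326 and 294 to 907 and 1013, a 3.10-fold rise (log2 change 1.63, SE 0.15, limma adjusted p = 2.87e-05). In both genes the groups stood far apart beside the gap between replicates. The pair shares sequence: 19.9% of the 31-base words in ZNF33A transcripts and 19.6% of those in ZNF33B also occur in other genes, mostly in each other (18.8% and 17.2%), so reads could be split between them. Their upstream sequences of 250 bases were 75.4% identical over the alignment.

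The next rises included several genes of chromosome 19. ZNF468 (ENSG00000204604) stood at 127 and 101 in the controls and at 335 and 380 after SLFN5 siRNA (log2 change 1.65, SE 0.21, limma adjusted p = 0.000184). ZNF525 rose from 121 and 116 to 302 and 442 (1.61, limma adjusted p = 0.000320), and ZNF426 from 138 and 117 to 313 and 403 (1.48, limma adjusted p = 0.000376). ZNF791 rose from 198 and 183 to 502 and 528 (1.43, limma adjusted p = 0.000119). ZNF91, a repressor of SVA and L1 retroelements, rose from 138 and 166 to 346 and 406 (log2 change 1.30, SE 0.19, limma adjusted p = 0.000539). ZNF611 rose from 155 and 107 to 357 and 284 (1.30, SE 0.23, limma adjusted p = 0.00155). In each of these the lower SLFN5 siRNA library was well above the higher control, and ZNF525, ZNF426 and ZNF611 had the widest gaps between replicates. Of the 10 largest rises 8 were KRAB genes and 6 lay on chromosome 19, beside 66 of 154 and 47 of 156 in the set. All but ZNF664 and ZNF33A had control means under 200 and entered the set through their level after SLFN5 siRNA. Nothing is read from these counts.

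**Figure D2:**
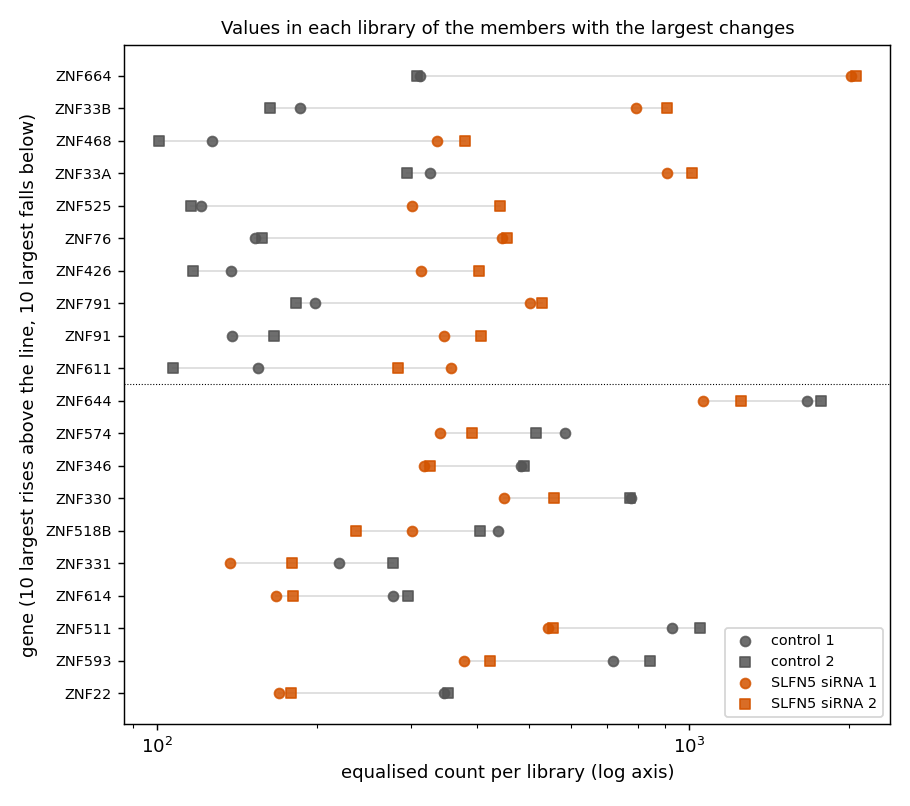
Equalised count in each library (log axis) of the 10 genes with the largest rises and the 10 with the largest falls, with controls in grey and SLFN5 siRNA in orange, replicate 1 as circles and replicate 2 as squares. In every row the 2 groups are apart, and ZNF664 shows the widest separation.

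By chromosome, 24 of the 47 members on chromosome 19 were higher and 4 lower (median 0.49), and 25 of the 109 elsewhere were higher and 14 lower (median near 0). Of the 24, however, 17 had a control mean under 200 and reached the set through their level after SLFN5 siRNA. With both group means at least 200, 7 of 27 on chromosome 19 were higher and 2 lower (median -0.03), beside 18 and 13 of 94 elsewhere (median -0.01). The difference between chromosome 19 and the rest was not tested. Among all tested genes with a mean of at least 200, 16.1% were higher and 24.7% lower. Within the KRAB class, 19 of 33 KRAB genes on chromosome 19 were higher (median 0.65), and 11 of 33 elsewhere (median 0.19), beside 4 of 15 (median 0.21) and 5 of 26 (median 0.13) with both group means at least 200. In 20 instances 2 members were adjacent protein-coding genes. In 6 of these pairs both were higher, in 0 both were lower, in 0 the calls were opposite and in 7 neither passed. Adjacent genes of other names were not counted. Of the 12 pairs in which both genes had both group means at least 200, both were higher in 1. The 6 were ZNF33A and ZNF37A, ZNF426 and ZNF121, ZNF83 and ZNF611, ZNF28 and ZNF468, ZNF468 and ZNF320, and ZNF680 and ZNF107. ZNF468 and ZNF320 share 6021 exon bases on the same strand, so their values may not be separate measurements.

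KRAB genes were also counted by the sequence they share with other genes. Of the 39 KRAB genes with at least 5% of their 31-base words present in other genes, 25 were higher and 1 lower (median 0.65). Of the 27 with less, 5 were higher and 3 lower (median 0.02). Of the 25, however, 19 had a control mean under 200. With both group means at least 200 the counts were 6 higher and 0 lower of 18 (median 0.30) and 3 higher and 2 lower of 23 (median 0.02). The shares over all tested genes with a mean of at least 200 were 16.1% higher and 24.7% lower. Genes without the box had 5 higher and 5 lower of 25 with at least 5% shared (median -0.05), and 13 higher and 9 lower of 63 with less (median -0.03). How reads matching several genes were counted is not stated in the labels, and their part in the values was not tested. ZNF84 was the KRAB gene with the largest rise among those with under 5% shared. It has 1.21% shared words and stood at 199 and 218 in the controls and at 470 and 494 after SLFN5 siRNA (log2 change 1.21, limma adjusted p = 0.000349, chosen after its values were seen).

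**Figure D3:**
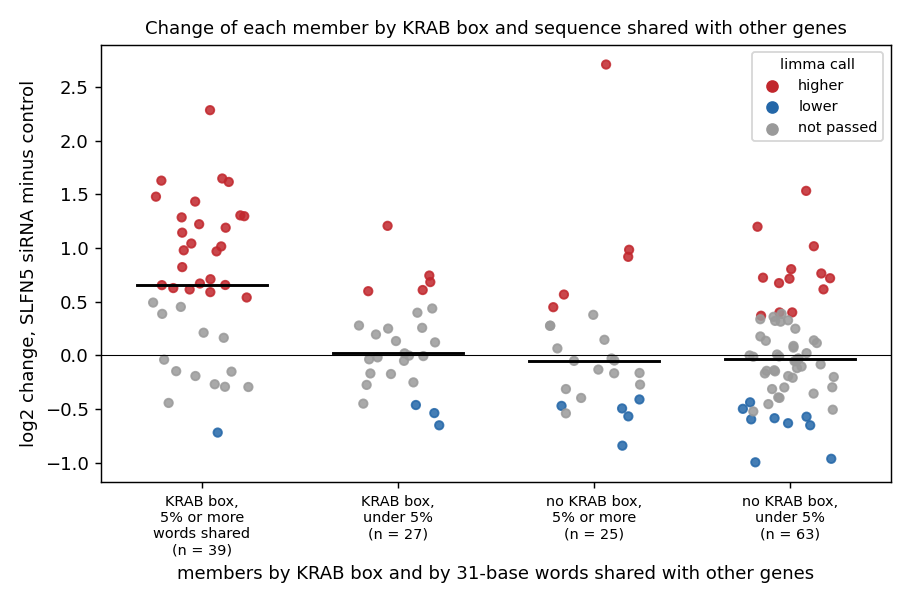
Log2 change (SLFN5 siRNA minus control) of the 154 members with a coding sequence, split by KRAB box and by the share of 31-base words also found in other genes, with the median of each column as a bar. The first column, KRAB genes with at least 5% shared, has its median at 0.65 and the other 3 columns have medians near 0. Of the 25 higher genes in that column 19 had control means under 200, and its median is 0.30 with both group means at least 200.

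Calls were also counted by finger number, with no test. The background of tested genes with a mean of at least 200 was 16.1% higher and 24.7% lower. Of 40 members with 5 or fewer fingers 3 were higher and 9 lower, of 52 with 6 to 10 fingers 19 and 6, of 39 with 11 to 15 fingers 14 and 2, and of 23 with at least 16 fingers 12 and 1. With both group means at least 200 the same bands held 3 and 8 of 36, 9 and 5 of 37, 7 and 1 of 31, and 5 and 1 of 15, with a median near 0 in the last. The rank correlation of finger number with log2 change was 0.35 over 154 genes, 0.29 within the KRAB class and 0.25 outside it. With both group means at least 200 it was 0.32 over 119 genes, 0.29 over 41 KRAB genes and 0.29 over 78 others. The genes share their libraries, and the number describes these libraries only. KRAB proteins had a median of 12 fingers and the others 7, so class and finger number go together.

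Promoter windows of higher KRAB genes are shown to let their upstream sequences be compared. RefSeq promoter windows (250 bases before to 50 after the start, GRCh38.p14) were matched for 134 of the 156 genes. The CCAAT box, searched as CCAAT on both strands, occurred in 62.1% of KRAB promoters, in 25% of those without the box and in 34.6% of all 35116 promoters. It was picked from several motifs that were counted. Of 36 KRAB genes with CCAAT 19 were higher and 2 lower (median 0.60), and of 22 without it 10 and 2 (median 0.17). With both group means at least 200 these were 6 and 1 of 21 (median 0.28) and 3 and 1 of 14 (median -0.08). Genes without a KRAB box showed 4 higher and 2 lower of 19 with CCAAT, and 11 and 11 of 57 without. Over tested genes with a mean of at least 200, 16.1% were higher and 24.7% lower. The 6 sequences below come from the higher KRAB genes with the largest rises whose window held the motif, 30 bases each, 5′ to 3′ on the gene's strand, with CCAAT in capitals. ZNF440 and ZNF107 appear by that order, not by the rule for named genes.
ZNF33B, chr10:42638692-42638721, minus strand: ggcacctctctgCCAATcccgaagggctgc
ZNF33A, chr10:38010545-38010574, plus strand: ggcacttctctaCCAATccgaagggctgct
ZNF791, chr19:12610863-12610892, plus strand: ctgtataattgtCCAATcaggggcggcgcc
ZNF91, chr19:23395512-23395541, minus strand: gctgggaactgtCCAATcaggcacaaagct
ZNF440, chr19:11814196-11814225, plus strand: ctggcgccccatCCAATcaggggtgctggg
ZNF107, chr7:64666069-64666098, plus strand: gctgggaaccgtCCAATcaggcacgcagct

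The ZNF33A and ZNF33B windows read nearly alike, as do those of ZNF91 and ZNF107, which lie on different chromosomes. ZNF440 stood at 156 and 163 in the controls and at 392 and 388 after SLFN5 siRNA (log2 change 1.28, limma adjusted p = 0.000347). ZNF107 stood at 150 and 141 in the controls and at 277 and 416 after SLFN5 siRNA (1.22, limma adjusted p = 0.00177). Both had their groups well apart, with the wider replicate gap in ZNF107. A motif match is a description of the letters and does not show a bound factor. The ETS core CCGGAAG occurred in 38.1% of ZNF promoters and 10.3% of all promoters, at 36.4% of the higher and 35.3% of the lower genes. TATAAA occurred in 3.73% beside 11.5% of all, and the median number of CG pairs was 23 beside 14.

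The falls were smaller and came mostly from genes without a KRAB box, 14 of 18. ZNF22 (ENSG00000165512, chromosome 10), a short C2H2 gene, stood at 346 and 352 in the controls and at 170 and 179 after SLFN5 siRNA (log2 change -0.997, SE 0.18, limma adjusted p = 0.00164). Its SLFN5 siRNA mean was 174, so it entered the set through its control level. ZNF593 (ENSG00000142684, chromosome 1), a factor of the large ribosomal subunit precursor, went from 720 and 843 to 377 and 421 (-0.96, SE 0.15, limma adjusted p = 0.000751). ZNF511 (ENSG00000198546, chromosome 10) went from 927 and 1047 to 543 and 555 (-0.84, SE 0.14, limma adjusted p = 0.000891). In all 3 genes both SLFN5 siRNA libraries were below both controls by more than the replicate gap. ZNF511 overlaps TUBGCP2 on the other strand, which had a mean of 2124 and a log2 change of 0.19, and the labels do not state whether the counting used strand.

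The KRAB genes ZNF614 (278 and 296 to 168 and 180) and ZNF331 (220 and 278 to 137 and 180) fell by 0.72 and 0.65 on the log2 scale (limma adjusted p = 0.0126 and 0.0422). Their SLFN5 siRNA means were 174 and 158, so both entered the set through their control level. ZNF614 lost its call without Control 2 (limma adjusted p = 0.0980). ZNF331 lost its call without Control 2 (limma adjusted p = 0.306), without SLFN5 siRNA 1 (0.193) and with TMM scaling (0.0537), median-ratio scaling (0.0583) or voom on the recovered counts (0.0740). ZNF518B went from 437 and 404 to 302 and 236 (-0.65, limma adjusted p = 0.0169), a call lost without Control 1 (0.0828) and without SLFN5 siRNA 2 (0.0848). ZNF574 went from 585 and 515 to 340 and 391 (-0.59, limma adjusted p = 0.0161), lost without Control 1 (0.128) and without SLFN5 siRNA 1 (0.0732). ZNF330, a nucleolar zinc finger protein in which no C2H2 finger was found, stood at 776 and 773 in the controls and at 448 and 556 after SLFN5 siRNA (-0.63, SE 0.15, limma adjusted p = 0.00849).

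Of the 17 lower genes with a promoter window, 4 held the full palindrome TGACGTCA, the cAMP response element. It was also held by 2 of 44 higher genes and 4 of 73 that did not pass. The share was 7.46% of the ZNF promoters, these lower genes included, and 1.85% of all promoters. The shares rest on few genes, and this motif was picked from several that were counted. The 4 lower genes are shown with the palindrome in capitals, in the same layout.
ZNF593, chr1:26169835-26169864, plus strand: ctggccgagagTGACGTCAtcagaggcggt
ZNF511, chr10:133308867-133308896, plus strand: ggaagtgagcgTGACGTCAcgtccggctcg
ZNF330, chr4:141220863-141220892, plus strand: ctcccgtcctaTGACGTCAgccgtaaggcg
ZNF335, chr20:45972402-45972431, minus strand: agggaccagaaTGACGTCAcaaccacttcc

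Of the 8 ZNF genes listed for RNA and ribosome roles, 0 were higher, 3 (37.5%) were lower and the median log2 change was -0.29. Of the tested genes with a mean of at least 200, 24.7% were lower, and nothing is read from 3 of 8 beside it. ZNF207 (BUGZ), a spindle protein that stabilises BUB3 and the gene with the highest value in the set, stood at 4577 and 4529 in the controls and at 2903 and 3242 after SLFN5 siRNA (-0.57, SE 0.11, limma adjusted p = 0.00258). ZNF593, above, and ZNF346 were the other lower genes of the list. ZNF346 (JAZ), which binds duplex RNA, went from 483 and 489 to 317 and 325 (-0.60, SE 0.15, limma adjusted p = 0.0126), a call lost without Control 1 (0.0599) and without Control 2 (0.0825). ZNF622, another factor of the large ribosomal subunit precursor and the gene with the highest value per kilobase of exon (805 per kb, with ZNF593 next at 768), stood at 1225 and 1275 in the controls and at 1506 and 1462 after SLFN5 siRNA. Its groups did not overlap, yet it did not pass (log2 change 0.25, limma adjusted p = 0.138). With quantile normalisation it did (0.0468). ZNF593 and ZNF622, named together for their part in ribosome assembly, had log2 changes of opposite sign.

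The rest of that list did not pass. ZNF598, the ubiquitin ligase of collided ribosomes, had a log2 change of -0.27 (limma adjusted p = 0.136). The spliceosome-associated ZNF830 had -0.30 (limma adjusted p = 0.327), with SLFN5 siRNA 1 at 211 and SLFN5 siRNA 2 at 327, the latter above both controls (320 and 326). Without SLFN5 siRNA 2 it passed (0.0485). ZNF106, an RNA-binding protein, had 1772 and 2015 in the controls beside 1819 and 1983 after SLFN5 siRNA (log2 change 0.01, limma adjusted p = 0.973). ZNF638, which works with the HUSH silencing complex on unintegrated retroviral DNA, had a log2 change of -0.03 (limma adjusted p = 0.878). Both lie among the 5 genes with the highest values of the set, with overlapping groups.

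Of the other 2 of these 5, ZNF451, a SUMO ligase, did not pass (log2 change 0.02, limma adjusted p = 0.925). ZNF655 stood at 1780 and 1857 in the controls and at 1360 and 1263 after SLFN5 siRNA (-0.47, limma adjusted p = 0.0105), a call lost without Control 2 (0.0844).

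The 14 genes listed for corepressor, chromatin and promoter roles included 3 higher (21.4%) and 2 lower (14.3%), with a median of 0.05. These shares lie near those of the tested genes with a mean of at least 200 (16.1% and 24.7%), and nothing is read from them about the list. ZNF281, a stem cell and epithelial-mesenchymal transition regulator, stood at 575 and 568 in the controls and at 923 and 899 after SLFN5 siRNA (log2 change 0.67, SE 0.13, limma adjusted p = 0.00285). ZNF462 and ZNF592 were higher by 0.37 and 0.45 (limma adjusted p = 0.0459 and 0.0380). Both lost their calls in each of the 4 fits without 1 library, with limma adjusted p between 0.0742 and 0.244. ZNF644, a partner of the H3K9 methyltransferases G9a and GLP, went from 1666 and 1768 to 1063 and 1252 (-0.57, SE 0.13, limma adjusted p = 0.00577). ZNF335, a component of a histone H3K4 methyltransferase complex, went from 1254 and 1215 to 889 and 856 (-0.50, limma adjusted p = 0.0101), a call lost without Control 1 (0.0655). In ZNF644 and ZNF335 both SLFN5 siRNA libraries were below both controls.

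The others of this list did not pass. ZNF217, an oncogene product that binds CoREST and LSD1, stood at 987 and 1059 in the controls and at 1318 and 1246 after SLFN5 siRNA (log2 change 0.33, limma adjusted p = 0.0666). It passed with median-ratio scaling (0.0474), quantile normalisation (0.0335) and voom on the recovered counts (0.0396). The ZMYND8 partners of ZNF592 had changes of opposite sign that did not pass: ZNF687 0.32 (limma adjusted p = 0.213) and ZNF532 -0.54 (limma adjusted p = 0.0553). ZNF687 passed without Control 1 (0.0370), and ZNF532 passed with quantile normalisation (0.0384) and with a minimum value of 50 (0.0487). ZNF516, ZNF131, ZNF148 and ZNF609 had log2 changes of 0.09, -0.21, 0.18 and -0.06 (limma adjusted p = 0.642, 0.227, 0.295 and 0.831).

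The silencing list joins genes of the TRIM28 route with more general chromatin genes such as KDM1A and UHRF1. Of its 37 tested genes, 13 were lower and 6 higher, with a median log2 change of -0.28. That is 35.1% lower and 16.2% higher, beside 24.7% and 16.1% of the tested genes with a mean of at least 200. In all 12 passed without Control 2 and 2 without the intensity trend. TRIM28, the shared corepressor, stood at 8164 and 7617 in the controls and at 5363 and 4970 after SLFN5 siRNA (-0.61, SE 0.11, limma adjusted p = 0.00147), a call lost without the intensity trend (0.0685). SETDB1 did not pass (1123 and 1100 beside 915 and 1030, log2 change -0.20, limma adjusted p = 0.281). Among the largest falls were those of KDM1A, the LSD1 demethylase (-0.82, SE 0.11, limma adjusted p = 0.000242), and UHRF1, the partner of maintenance DNA methylation (-0.75, SE 0.12, limma adjusted p = 0.000765, and 0.0519 without the trend). The largest rise was in FAM208A, the TASOR subunit of HUSH, from 649 and 773 to 1310 and 1444 (0.96, SE 0.14, limma adjusted p = 0.000433). DNMT3B rose by 0.76 (limma adjusted p = 0.0102) and CHD3, a NuRD helicase, by 0.56 (limma adjusted p = 0.00937). Both lost their calls without Control 2 (0.0557 and 0.0932) and without SLFN5 siRNA 1 (0.0833 and 0.0613). The HP1 genes CBX5 and CBX3, SUMO2, SUMO3, MTA2, RBBP7, SUV39H1 and SMARCAD1 were among the other lower genes, and EHMT1, ATF7IP and HDAC1 were also higher. Whether these changes bear on the KRAB genes was not tested.

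**Figure D4:**
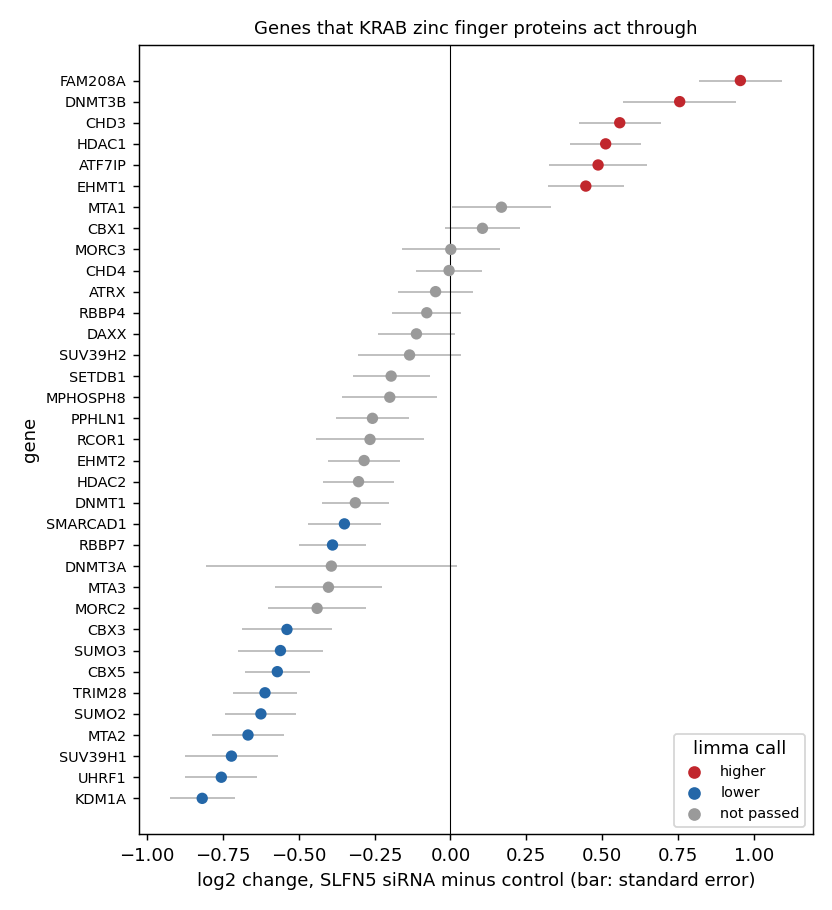
Log2 change (SLFN5 siRNA minus control, points) with its standard error (bars) of 35 of the 37 tested genes of the silencing list, coloured by limma call. The list holds general chromatin genes beside those of the TRIM28 route. FAM208A lies highest at 0.96, KDM1A lowest at -0.82, and TRIM28, CBX5 and CBX3 lie among the lower calls.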

How the data were processed

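RNA-seq libraries of 786-0 cells (2 control siRNA, 2 SLFN5 siRNA) were made with the TruSeq RNA v2 kit and read on a HiSeq 2500, per the labels' protocols. Per the submitters' processing notes, the authors used build hg19 and the tool edgeR. Aligner, counter and annotation version were not given in the sources used here. Each deposited value is a signal, that is, read counts that the authors adjusted to a common library size. The quantile adjustment was made within each group, shown by inverting it, which gave whole counts for 100% of 230636 values (tolerance 1e-06). The recovered totals were 31905328, 13187517, 17117659 and 14700669 counts for Control 1, Control 2, SLFN5 siRNA 1 and SLFN5 siRNA 2. Rows with an Ensembl ID but no gene name (2682 of 57659) stayed in the fit.

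limma 3.58.1 in R 4.3.3 was fitted on log2(value + 1) to the 15640 genes with a value of at least 10 in at least 2 libraries, with group alone, an intensity trend and Benjamini-Hochberg adjustment over all of them (prior degrees of freedom 9.60, residual 2). This scale understates changes of low genes. On simulated counts for this comparison (15599 genes tested, 50 changed per fold) 82.0% of 2-fold rises, 68.0% of falls to 0.5, 20.0% of 1.5-fold rises and 20.0% of falls to 0.67 were called, with 4 of 15399 unchanged genes. The simulation used the same dispersion for every gene and changed few genes, whereas 4630 of 15640 were called in the data. These rates belong to that setting and do not give the share of missed or false calls in the data.

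KRAB boxes (19 consensus positions, at least 11 matched) and C2H2 fingers were found in coding sequences of GENCODE release 29 (GRCh38), translated and matched by Ensembl ID; the limit was set with the scores in view, and 5 genes with 9 or 10 matches count as without. Shared sequence is the share of a gene's 31-base transcript words found in another gene. Adjacency and overlap come from the same annotation, and chromosomes are given by name only because the deposited values were made on hg19. Alternatives were other pseudocounts, filters, scalings, variance models, a replicate block, leaving out each library and other member minimums; voom on the recovered counts and the minimum of 200 in both groups were chosen after seeing the data. The genes, lists and rules were chosen with earlier results of these data known. Genes named are the 10 largest passing rises and falls whose groups do not overlap, the 5 most abundant, the 3 on each side of the minimum, the role lists, SLFN5, TRIM28, SETDB1 and the 3 largest passing changes each way of the silencing list, of which 2 genes are counted but not reported here by name.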

Additional observations from a re-analysis of the deposited data

How the results depend on the processing

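Without the intensity trend 19 members were higher and 3 lower, 1182 genes passed in all and 2 of the silencing list did. The log2 changes are those of the fit with the trend, so the variance moderation alone differs. Leaving out 1 library at a time gave 36 to 43 higher, 9 to 16 lower, a median log2 change of the members of 0.0948 to 0.139, 2941 to 3951 genes passing in all and 12 to 16 of the silencing list. The lowest of the last 2 values came without Control 2. The median moved to 0.14 with median-ratio scaling, 0.13 with TMM scaling and 0.13 with voom on the recovered counts. With a member minimum of 100 the set was larger, with 83 higher and a median of 0.16. With 500 it held 28 genes with means from 500 to 1000 and 21 of at least 1000. Of these 12 were higher and 11 lower, with a median of -0.0550. With both group means at least 200 there were 25 higher of 121 (20.7%) and a median of -0.01. Of the tested genes with a mean of at least 200, 16.1% were higher and 24.7% lower. The pseudocounts, the other filters and quantile normalisation kept the counts within 1.5 times. Same-numbered libraries of the 2 groups share a code in their titles, which no label ties to a batch or day. The main fit did not use that code. Deviations of same-numbered libraries had a Pearson correlation of 0.19 over 15640 genes (with 2 libraries a group, 1 number for the whole design), and the fit with a replicate block gave 57 higher, 29 lower and 6703 genes in all. Depth limits the rarer members most in Control 2, where the lowest count was 69.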
